A study of Mus musculus with 7 samples.

Results

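The 34 genes described here are MYC target ribosome biogenesis genes: a list of symbols for factors that make ribosomal RNA and assemble it with protein, together with a few other classic MYC targets of growth metabolism. They were chosen by name, with earlier results of these data known. All 34 were listed in each of the 7 count tables, among 19415 genes over all tables. By role, 5 are proteins of small nucleolar ribonucleoprotein particles (snoRNPs) or their helpers, 4 belong to RNA polymerase I or regulate the nucleolus, 7 assemble the small and 11 the large ribosomal subunit, and 7 are other MYC targets.

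Ribosomes are built in the nucleolus, where RNA polymerase I transcribes a long precursor RNA that snoRNPs modify and assembly factors cut and fold into the small and the large subunit. MYC and its relative MYCN are transcription factors that pair with MAX, bind E-box DNA and are known for raising the genes of this pathway, together with enzymes of polyamine and pyrimidine synthesis that growing cells need. Atypical teratoid rhabdoid tumours (ATRT) are brain tumours of early life caused by loss of Smarcb1, part of the chromatin remodelling machine SWI/SNF, and they are sorted into subgroups, of which MYC and SHH are modelled here.

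All animals carried loxP-flanked Smarcb1 alleles and a tamoxifen-activated Cre recombinase expressed from the ubiquitous Rosa26 promoter (Rosa26-CreERT2::Smarcb1 fl/fl). Each litter received tamoxifen through the pregnant female, 50 mg/kg once at day 6.5 post coitum, so every group shares the deletion and the treatment, and every cell type could have recombined. The MYC group held 5 libraries of 4 animals, taken at 12 weeks (replicate 1, basal cerebrum), 19 weeks (replicate 2, trigeminal nerve, and replicate 3, lateral cerebellum), 21 weeks (replicate 4, trigeminal nerve) and 27 weeks (replicate 5, basal cerebrum). Replicates 2 and 3 share a number in their titles and were summed as 1 animal. The SHH group held 2 libraries of 2 animals at 14 and 16 weeks, both from the striatum and subventricular zone. No site was sampled in both groups, so subgroup and site cannot be told apart, while both SHH ages lie inside the MYC range.

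Single cells were profiled by 3' end counting of unique molecular identifiers (UMIs), each of which stands for 1 captured RNA molecule. Of 24433 barcodes, 23938 passed the quality limits. Library totals ran from 2150925 to 111985990 UMIs, the highest in MYC replicate 5, and 230 barcode sequences occurred in more than 1 library. Cells were gated on raw marker UMIs into 10557 tumour-gated cells (few immune UMIs and no vascular, myelin or red-cell profile), 6169 macrophage-gated cells and 2418 T cell-gated cells, which left 4794 cells in no gate. Levels are given as CPM, UMIs of a gene scaled to a common total of UMIs of the gate and summed per animal. A 3' count does not grow with transcript length, so levels of different genes can be set side by side. Smarcb1 itself, which no gate used, was at 0 to 9.84 CPM in the tumour-gated cells of the 6 animals. It was at 20.1 to 57.3 CPM in their macrophage-gated cells and at 17.3 to 58.1 in their T cell-gated cells, so the ranges did not overlap. The tumour gate can still hold fibroblasts and astrocytes.

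The canonical E-box, CACGTG, was looked for in the promoters to show where in these genes it lies. It reads the same on both strands. RefSeq promoter windows of 300 bases (250 before to 50 after the start, GRCm38.p6) were found for 28 of the 34 genes, and 9 of the 28 held the motif, 32.1%. Among 16522 protein-coding genes with such a window, 9.18% held it. The 9 sites are printed 5′ to 3′ on the gene's strand, with the motif in capitals and up to 12 bases on either side.
Imp4, chr1:34439696-34439725, plus strand: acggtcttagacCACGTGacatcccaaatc
Nop2, chr6:125131811-125131840, plus strand: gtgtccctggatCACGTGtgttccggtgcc
Exosc5, chr7:25659097-25659126, plus strand: taaacgctgagcCACGTGctagggccaact
Prmt3, chr7:49778333-49778362, plus strand: gccccctacgccCACGTGacccggaagcgc
Pes1, chr11:3963965-3963994, plus strand: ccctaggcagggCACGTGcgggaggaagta
Wdr43, chr17:71616220-71616249, plus strand: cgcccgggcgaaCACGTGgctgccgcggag
Grwd1, chr7:45830740-45830767, minus strand: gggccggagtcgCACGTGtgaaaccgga
Utp20, chr10:88826765-88826789, minus strand: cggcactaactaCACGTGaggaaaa
Mybbp1a, chr11:72441355-72441376, plus strand: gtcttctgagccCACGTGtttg

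The first base of the motif lay 121 bases before the RefSeq start in Imp4, 60 in Nop2, 44 in Exosc5 and 13 in Prmt3. It lay 3 bases into the transcript in Pes1, 18 in Wdr43, 35 in Grwd1, 38 in Utp20 and 41 in Mybbp1a. The flanks differ from gene to gene, and the match is a description of the letters only. Fbl, Npm1, Tcof1, Srm, Bop1 and Rrp12 had no window. The 34 genes lie on 17 chromosomes. By GENCODE M21, 7 of the 34 (20.6%) carry small nucleolar RNAs (snoRNAs) on their own strand: Nop56 carries 5, Nop58 carries 4, Gnl3 and Wdr43 carry 3 each, Ppan carries 2, and Odc1 and Dkc1 carry 1 each. Of all 21951 protein-coding genes, 1.18% do.

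The summed level of the 34 genes was highest in tumour-gated cells of 5 of 6 animals and lowest in macrophage-gated cells of all 6. In tumour-gated cells it was 3708 CPM in MYC replicate 1, 2519 in MYC replicates 2 and 3, 2697 in MYC replicate 4, 3767 in MYC replicate 5, 3420 in SHH replicate 1 and 3806 in SHH replicate 2. In macrophage-gated cells of the same animals it was 1610, 2332, 1141, 2391, 1716 and 1390 CPM. Every animal was higher in tumour-gated cells, by 1.08 to 2.74 times, with a mean log2 difference of 0.94 ± 0.49 (SD, n = 6 animals). The smallest difference was in MYC replicates 2 and 3, where the macrophage gate held 28 cells. Its 10 cells of replicate 2 gave 1317 CPM (exact Poisson 95% interval 987 to 1723, counting error only) and its 18 cells of replicate 3 gave 2681 CPM (2392 to 2995). The 203 tumour-gated cells of this animal also pool both libraries and are not split here, so 1.08 is not a ratio within a library. The summed level uses no size factors, and without them the median log2 fold change of all genes tested between these gates was 0.50 (edgeR). The sum of 81 other ribosome biogenesis genes was also higher in tumour-gated cells of 6 of 6 animals, by 1.05 to 2.38 times. That of 81 ribosomal protein genes was higher in 6 of 6, by 1.04 to 2.10 times. The difference between these lists was not tested.

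T cell-gated cells lay between the other gates in 5 of 6 animals. Their summed level was 2749, 3010, 2316, 2874, 2772 and 3107 CPM in the same order of animals, a narrower range than in either other gate. It was above the macrophage-gated level in 6 of 6 animals, by 1.20 to 2.24 times. Ribosomal protein genes were also higher in 6 of 6, by 1.31 to 2.39 times, and the other ribosome biogenesis genes by 1.16 to 2.12 times. No gene by gene test was made for this pair of gates. Tumour-gated cells were above T cell-gated cells in 5 of 6 animals, with a mean log2 difference of 0.23 ± 0.25 (SD, n = 6), and MYC replicates 2 and 3 ran the other way.

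**Figure D1:**
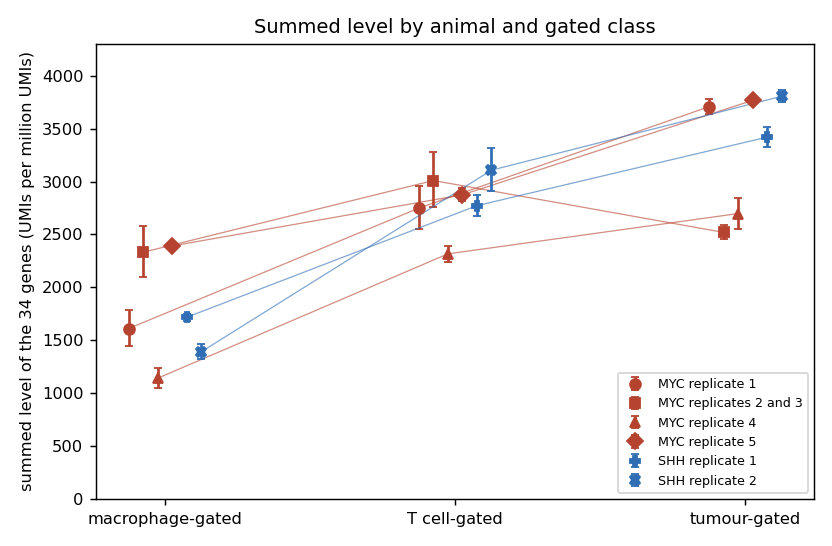
The y axis gives the summed level of the 34 genes in CPM, and the x axis the 3 gates. Each symbol is 1 animal (red, MYC; blue, SHH) with its exact Poisson 95% interval, and lines join the gates of an animal: every line rises from macrophage-gated to tumour-gated cells, from 1141 to 2391 up to 2519 to 3806.

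Npm1, the abundant nucleolar chaperone nucleophosmin, made up 31.9% to 40.1% of these UMIs in tumour-gated cells. Npm1 has many processed copies in the genome, and how reads shared with them were counted is not given in the sources used here, so its level is uncertain. Without Npm1 the tumour-gated level remained above the macrophage-gated level in 6 of 6 animals, by 1.09 to 2.67 times. The difference was also present in single cells of equal depth. Cells with 1000 or more UMIs were thinned to 1000, which left out 0 to 134 cells per animal and gate. Tumour-gated cells then held a mean of 2.27 to 3.57 UMIs of the 34 genes, T cell-gated cells 1.95 to 3.15 and macrophage-gated cells 1.08 to 2.17. Between 4.31% and 17.7% of thinned tumour-gated cells held none, against 14.9% to 37.7% of macrophage-gated cells. Before thinning these shares were 0% to 0.985% and 0.272% to 12.6%.

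In the gene by gene test of tumour-gated against macrophage-gated cells (edgeR quasi-likelihood F test with the animal as a block, Benjamini-Hochberg adjustment over 9181 genes), 12 of 32 tested genes rose and 0 fell. Of all genes tested, 15.6% rose and 16.6% fell. The median log2 fold change was 0.68 for the 32 genes and 0.11 for all genes. Rrp12 and Polr1b were too low to be tested, and their tumour-gated levels were 1.80 to 10.5 and 0.902 to 6.76 CPM.

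Among snoRNP proteins, 3 of 5 rose. Nop58, a core protein of the box C/D particles that guide methylation of ribosomal RNA, was at 133, 93.8, 105, 196, 117 and 115 CPM in tumour-gated cells of the 6 animals, in the order MYC 1, MYC 2 and 3, MYC 4, MYC 5, SHH 1, SHH 2 that is kept below. In macrophage-gated cells it was at 44.0, 89.2, 29.3, 97.3, 34.1 and 25.1 CPM. All 6 animals were higher in tumour-gated cells, while the highest macrophage-gated value exceeded the lowest tumour-gated value. The log2 fold change of Nop58 was 1.10 ± 0.24 SE (edgeR adjusted p = 0.0082). Dkc1, the pseudouridine synthase dyskerin, ran from 18.9 to 114 CPM in tumour-gated and from 16.5 to 38.4 in macrophage-gated cells and was higher in 5 of 6 animals (0.96 ± 0.28 SE, edgeR adjusted p = 0.029). Nolc1, a chaperone of snoRNPs, ran from 37.7 to 93.8 against 14.6 to 70.3 CPM (0.75 ± 0.20 SE, edgeR adjusted p = 0.019). Fbl, the methyltransferase fibrillarin, and Nop56, the partner of Nop58 in the same particle, did not pass, with log2 fold changes of 0.26 and 0.18. Nop56 reached 147 and 157 CPM in macrophage-gated cells of MYC replicates 2 and 3 and MYC replicate 5, within its tumour-gated range of 81.7 to 181 CPM.

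Of the nucleolar regulators, 1 of 3 tested rose. Npm1 was at 1422, 805, 922, 1444, 1371 and 1242 CPM in tumour-gated cells and at 480, 758, 417, 722, 725 and 428 CPM in macrophage-gated cells, with no overlap between the gates (0.73 ± 0.21 SE, edgeR adjusted p = 0.031). Tcof1, the treacle protein that recruits RNA polymerase I, had a log2 fold change of -0.46 and was lower in tumour-gated cells of 5 of 6 animals, but did not pass (edgeR adjusted p = 0.28). Mybbp1a, a nucleolar MYB-binding protein, was higher in 6 of 6 animals and did not pass (0.51, edgeR adjusted p = 0.13).

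Of the small subunit factors, 2 of 6 tested rose. Nob1, the endonuclease that makes the last cut of the small subunit RNA, was at 65.8, 46.4, 46.1, 56.2, 52.9 and 125 CPM in tumour-gated and at 22.0, 19.1, 12.8, 34.9, 23.6 and 23.3 CPM in macrophage-gated cells. The gates did not overlap (1.10 ± 0.26 SE, edgeR adjusted p = 0.011). Wdr43, an early assembly factor, passed narrowly (0.70 ± 0.23 SE, edgeR adjusted p = 0.047).

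Of the large subunit factors, 2 of 11 rose. Gnl3, the nucleolar GTPase nucleostemin, was at 136, 109, 79.6, 155, 61.5 and 55.2 CPM in tumour-gated and at 35.2, 44.6, 9.15, 82.4, 27.2 and 28.9 CPM in macrophage-gated cells (1.11 ± 0.32 SE, edgeR adjusted p = 0.029). It was higher in all 6 animals. Mrto4, a nuclear factor related to a ribosomal stalk protein, was the second (0.75 ± 0.19 SE, edgeR adjusted p = 0.017). Pes1, Bop1 and Wdr12 form 1 complex that processes large subunit RNA, and none of the 3 passed. Pes1 and Bop1 had log2 fold changes of -0.12 and -0.02, while Wdr12 was higher in 6 of 6 animals (0.92 ± 0.35 SE, edgeR adjusted p = 0.076).

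Of the other MYC targets, 4 of 7 rose. Odc1, ornithine decarboxylase, makes the first polyamine and Srm, spermidine synthase, the next. Odc1 was at 92.5, 134, 83.8, 51.4, 106 and 104 CPM in tumour-gated and at 26.4, 38.2, 33.0, 39.5, 27.4 and 23.3 CPM in macrophage-gated cells, with no overlap (1.20 ± 0.25 SE, edgeR adjusted p = 0.0074). Srm was at 142, 260, 143, 53.2, 111 and 147 CPM against 83.6, 121, 20.1, 24.1, 41.5 and 33.5 CPM (1.21 ± 0.26 SE, edgeR adjusted p = 0.0080). It was higher in 6 of 6 animals, although its tumour-gated level in MYC replicate 5 lay below its macrophage-gated level in 2 other animals. Cad, the enzyme that starts pyrimidine synthesis, was at 8.57 to 39.8 CPM in tumour-gated and at 1.86 to 8.80 CPM in macrophage-gated cells and had the largest fold of the 34 genes (1.43 ± 0.36 SE, edgeR adjusted p = 0.017). Prmt3, a methyltransferase of a small subunit protein, also rose (0.87 ± 0.21 SE, edgeR adjusted p = 0.013).

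**Figure D2:**
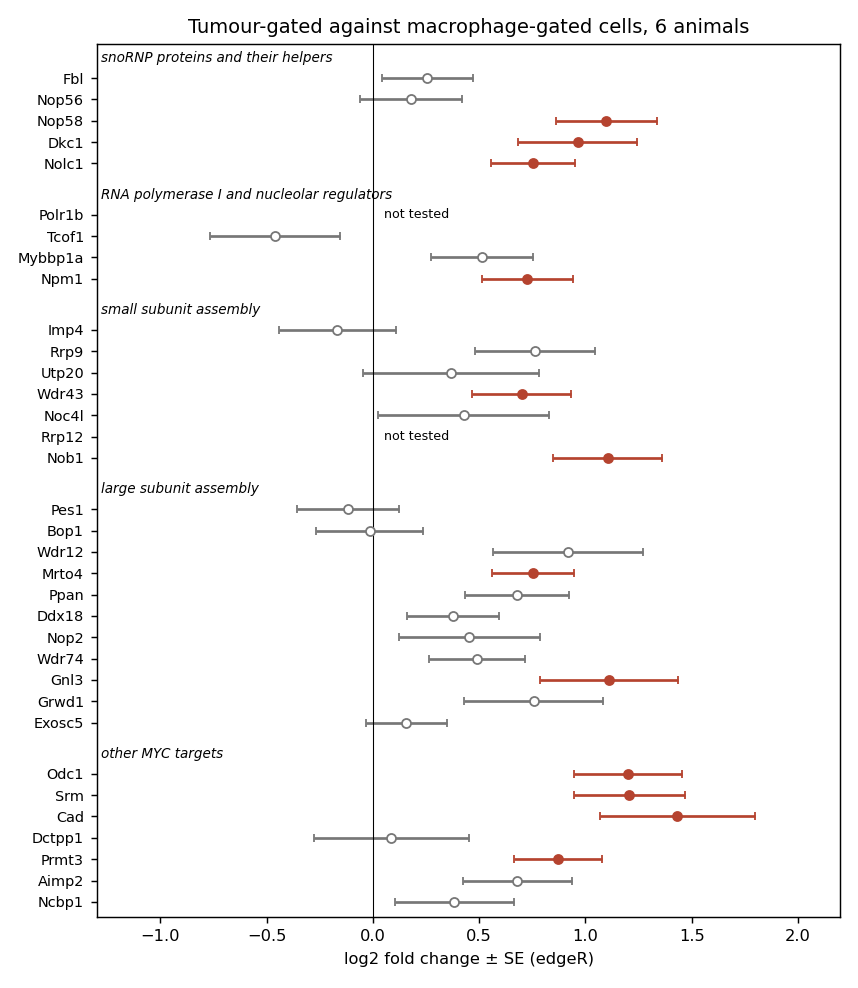
The x axis gives the log2 fold change of tumour-gated over macrophage-gated cells with its standard error (edgeR, 6 animals), and the y axis the 34 genes by role. Filled red points are the 12 genes that passed and open grey points those that did not: 28 of the 32 tested genes lie above 0, and the largest folds are those of Cad, Srm and Odc1.

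The calls depended on single animals and on scaling. The count fell to 6 on leaving out SHH replicate 2 (Dkc1, Mrto4, Nolc1, Npm1, Prmt3 and Wdr43 lost) and to 7 on leaving out SHH replicate 1 (Cad, Dkc1, Nolc1, Prmt3 and Wdr43 lost). Without MYC replicate 1, Dkc1, Gnl3, Npm1 and Wdr43 did not pass, without MYC replicates 2 and 3 Gnl3 and Wdr43, without MYC replicate 4 Npm1 and Wdr43, and without MYC replicate 5 Npm1. The highest adjusted p on leaving out an animal was 0.108, for Wdr43 (edgeR). Nop58, Odc1, Srm and Nob1 passed without any 1 of the 6 animals. The count was 7 with cycling tumour cells left out, where Tcof1 also passed as lower. Without size factors the median of all genes moved from 0.11 to 0.50, the count was 20, and 2920 genes were higher and 1211 lower in place of 1430 and 1520. Between 14.3% and 63.2% of tumour-gated cells were cycling by marker UMIs, against 2.47% to 23.4% of macrophage-gated cells. Markers of blood cells summed to 54.0 to 272 CPM in the tumour gate and 11830 to 16634 CPM in the macrophage gate, by construction of the gates. Genes of handling stress went the other way: 0 of 12 rose and 5 fell (edgeR), with a median log2 fold change of -1.37, and they summed to 1830 to 4286 CPM in the tumour gate and 3544 to 8638 CPM in the macrophage gate. Beyond the counts given, the part of these measures in the differences was not tested.

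Other genes of the pathway were counted in the same test. Of 78 tested of 81 other ribosome biogenesis genes, 15 rose and 0 fell in tumour-gated against macrophage-gated cells, with a median log2 fold change of 0.38. The share that rose, 19.2%, is near the 15.6% of all genes, of which 16.6% fell. In this list the genes with the smallest p were Ruvbl2 and Ruvbl1, ATPases that help build snoRNPs, Wdr75, a small subunit factor, and Gar1, a partner of Dkc1. Gar1 was at 107 ± 27.3 CPM (SD, n = 6) in tumour-gated and 42.9 ± 22.0 in macrophage-gated cells. Of 78 tested ribosomal protein genes, 7 rose and 1 fell (median 0.34), 8.97% and 1.28%, both below the shares of all genes. The difference between the lists was not tested.

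Against T cell-gated cells, 5 of 33 tested genes rose and 1 fell (edgeR), where 17.3% of all 8835 genes rose and 15.7% fell. The share of the 33 that rose, 15.2%, is near that background, and the share that fell, 3.03%, is below it. Wdr12 rose most clearly, at 78.2, 57.3, 44.0, 59.7, 75.0 and 69.7 CPM in tumour-gated and 22.7, 17.3, 23.0, 32.9, 27.7 and 20.5 CPM in T cell-gated cells, with no overlap (1.25 ± 0.21 SE, edgeR adjusted p = 0.0021). Srm (1.32 ± 0.27 SE, edgeR adjusted p = 0.0053) and Gnl3 (0.94 ± 0.21 SE, edgeR adjusted p = 0.0095) rose in this comparison as well. Ppan, a large subunit factor, rose by 0.77 ± 0.20 SE (edgeR adjusted p = 0.017), and Cad by 0.95 ± 0.28 SE (edgeR adjusted p = 0.029). Tcof1 fell by 0.74 on the log2 scale, from 46.1 to 98.0 CPM in T cell-gated to 22.1 to 73.4 CPM in tumour-gated cells, lower in 6 of 6 animals (edgeR adjusted p = 0.020). The Tcof1 call was lost without MYC replicate 1 or SHH replicate 1, that of Cad without MYC replicate 1, MYC replicate 4 or either SHH animal, and that of Ppan without MYC replicate 5 or either SHH animal. The highest edgeR adjusted p of the 3 was then 0.0952, and 3 genes were higher without either SHH animal. Without MYC replicate 5, Tcof1, Ncbp1 and Noc4l were lower. Both comparisons use the same tumour-gated sums. Ribosomal protein genes had another balance here: 1 of 78 rose and 13 fell, 1.28% and 16.7%, the second near the 15.7% of all genes.

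Between subgroups, Mycn and Mycl fell in MYC against SHH tumour-gated cells, and 0 of the 34 genes passed. Mycn, the MYC family gene of neural progenitors, was at 0, 0, 0 and 0.570 CPM in the 4 MYC animals and at 149 and 233 CPM in the 2 SHH animals, a log2 difference of -8.64 ± 0.79 SE (adjusted p = 0.0071 by edgeR). In the 3 animals at 0, a count of 0 allows up to 1.13, 1.35 and 6.29 CPM. Mycl, the third family member, was at 0 to 0.752 CPM in MYC and at 44.3 and 32.7 CPM in SHH animals (edgeR adjusted p = 0.012). Myc was at 64.3, 52.3, 2.10 and 32.7 CPM in MYC animals and at 5.53 and 1.87 CPM in SHH animals. The groups overlapped because MYC replicate 4, with 1 Myc UMI in 79 tumour-gated cells, was within the SHH range, and Myc did not pass (3.73 ± 1.18 SE, edgeR adjusted p = 0.12). Max, the shared partner, was at 39.8 to 70.3 CPM in all 6 animals.

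The summed level of the 34 genes in tumour-gated cells was 3173 ± 657 CPM (SD, n = 4) in MYC and 3613 ± 273 CPM (n = 2) in SHH animals, with SHH replicate 1 inside the MYC range and SHH replicate 2 above it. This level uses no size factors. Without them the median log2 fold change of MYC over SHH was -0.22 for all genes and 0.08 for the 34 genes. With edgeR, 0 of 34 genes passed in either direction, where 5.41% of 11674 genes did. At an unadjusted p under 0.05 there were 2 genes, against 24.3% of all genes. DESeq2 called 1 higher, Gnl3, and 1 lower, Dctpp1, where it called 9.47% of all genes higher and 6.1% lower. Gnl3 was at 136, 109, 79.6 and 155 CPM in MYC and at 61.5 and 55.2 CPM in SHH animals (1.30 ± 0.38 SE, edgeR adjusted p = 0.10). Dctpp1, an enzyme that clears abnormal nucleotides, was at 140, 38.3, 58.7 and 108 CPM in MYC and at 289 and 353 CPM in SHH animals (-1.64 ± 0.53 SE, edgeR adjusted p = 0.13).

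Groups did not overlap for 4 of the 34 genes on the MYC side (Gnl3, Nop2, Mybbp1a and Pes1) and for 3 on the SHH side (Exosc5, Dctpp1 and Prmt3). Of all genes tested, 16.2% and 19.9% did not overlap in these directions, so these shares were at or below the background. These 7 genes are named because of their values. Of the fixed set by role, the genes nearest 0 were Npm1 (0.06 ± 0.36 SE), Nop56 (-0.06 ± 0.43 SE), Odc1 (0.01 ± 0.38 SE) and Wdr12 (-0.02 ± 0.31 SE) on the log2 scale. The rest of that set ran from -0.70 ± 0.51 SE (Dkc1) to 1.30 ± 0.38 SE (Gnl3), with Cad at 0.58 ± 0.62 SE and Nop58 at 0.45 ± 0.40 SE. Errors of this size do not show that the groups were alike. The median over the 34 genes was 0.32 against 0.02 for all genes. Without size factors these medians were 0.08 and -0.22.

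Other measures also differed between these groups. Fibroblast markers (5 genes) summed to 606 to 945 CPM in tumour-gated cells of MYC animals and to 50.0 and 65.2 CPM in SHH animals. Astrocyte markers (4 genes) summed to 2.10 to 27.8 CPM in MYC and 54.2 and 169 CPM in SHH animals. Genes of handling stress summed to 2335 to 4286 CPM against 1830 and 1849 CPM, and median UMIs per tumour-gated cell were 4133 to 10872 against 2772 and 3708. Their part in the subgroup comparison was not tested.

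**Figure D3:**
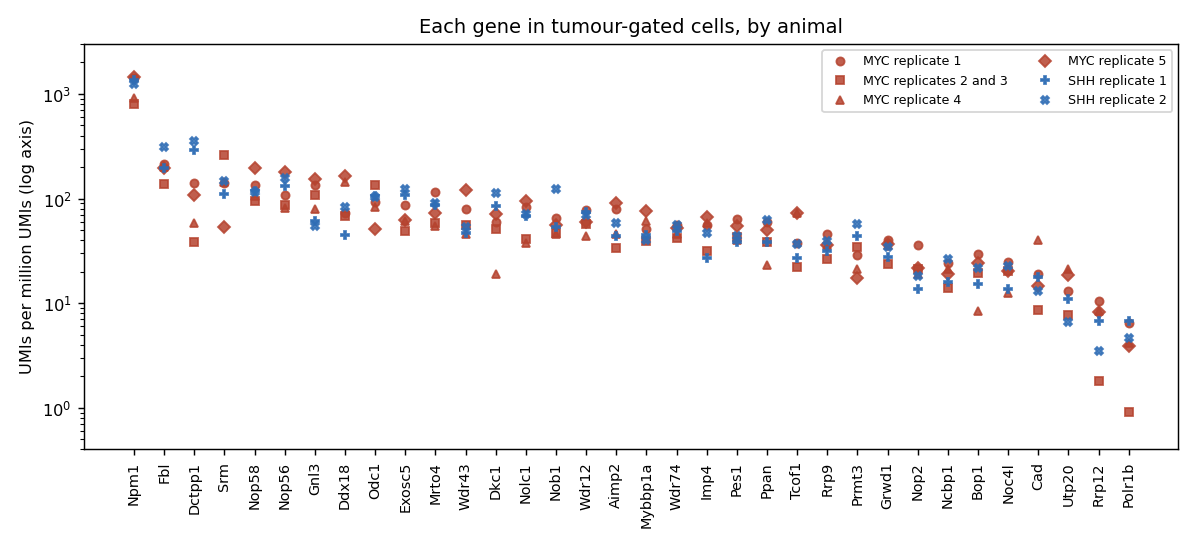
The y axis gives the level in tumour-gated cells in CPM on a log scale, and the x axis the 34 genes in order of their mean. Each symbol is 1 animal (red, MYC; blue, SHH): Npm1 stands above all others at 805 to 1444, Dctpp1 is higher in both SHH animals (289 and 353) and Gnl3 in all 4 MYC animals (79.6 to 155).

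In the other gates no gene of the 34 passed between subgroups either. With edgeR, 0 of 31 passed in macrophage-gated cells, where 1.02% of all genes did. At an unadjusted p under 0.05 were 0 of the 31, against 12.9% of all genes. In T cell-gated cells 0 of 30 passed (0.071% of all genes), and 1 of the 30, Wdr43, was under the unadjusted limit (4.98%). Over all kept cells, 0 of 34 passed (0.0075% of all genes), and 1 of the 34, Dctpp1, was under it (11.7%). DESeq2 called 0 of the genes in each of these 3 comparisons. The tumour to macrophage difference was then tested for a difference between subgroups: 0 of 34 genes passed, where 3.66% of 12176 genes did. Of the 34, 1 gene, Gnl3, was at an unadjusted p under 0.05 (edgeR), against 16.5% of all genes, and 0 passed by DESeq2. The median of this interaction was 0.23 with size factors and -0.37 without, so its sign depends on the scaling.

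Within tumours, cells with a Myc or Mycn UMI carried more of the 34 genes' RNA. Tumour-gated cells of the MYC animals with 4000 or more UMIs were thinned to 4000 UMIs and split by a Myc UMI in the thinned counts. Shallower cells were left out: 24 of 182 in MYC replicate 1, 33 of 203 in MYC replicates 2 and 3, 39 of 79 in MYC replicate 4 and 1074 of 8404 in MYC replicate 5. Cells with Myc against cells without it were at 4610 and 3344 CPM in MYC replicate 1, at 2568 and 2238 in MYC replicates 2 and 3, and at 4097 and 3600 in MYC replicate 5. These ratios are 1.38, 1.15 and 1.14. The exact Poisson intervals (counting error only) did not overlap in replicates 1 and 5, and did in replicates 2 and 3. MYC replicate 4 had 1 cell with Myc and was not tested. In SHH animals, thinned to 2000 UMIs and split by Mycn, the levels were 3797 and 3355 CPM in replicate 1 and 3958 and 3553 CPM in replicate 2, ratios of 1.13 and 1.11. Of their tumour-gated cells, 162 of 561 in replicate 1 and 193 of 1128 in replicate 2 were below 2000 UMIs and left out.

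Gene by gene, these differences did not pass. With Myc, 28 of 30 tested genes had a positive log2 fold change with a median of 0.25, against -0.01 for all genes. In the same cells 1 of 13 mitochondrial transcripts was positive, with a median of -0.29 and 7 of the 13 at an unadjusted p under 0.05 (0 passed with edgeR), and the part of this in the difference was not tested. With edgeR 0 of 30 passed, where 0.103% of 5825 genes did. The only gene that passed as higher was Myc, which made the split. Of the 30, 3 genes (Npm1, Wdr12 and Ppan) were at an unadjusted p under 0.05, against 2.88% of all genes. Wdr12 had the largest value, 0.58 ± 0.25 SE, higher in 3 of 3 animals. With Mycn, 24 of 31 were positive with a median of 0.17, and 0 passed, where 1.06% of 6896 genes did, Mycn included. Of the 31, 5 were at an unadjusted p under 0.05, against 7.28% of all genes. Among the 5, Mrto4 was at 0.52 ± 0.22 SE and Npm1 at 0.21 ± 0.08 SE, with 2 animals and 1 residual degree of freedom. DESeq2 called 0 in both, but it called 0 of all genes higher in either split. That includes Myc and Mycn, which made the splits, so its 0 for these genes carries no weight. Other lists also rose with Mycn. Of 77 tested ribosomal protein genes, 74 were positive with a median of 0.17, and 14 passed as higher (18.2%, edgeR), against 0.305% of all genes. DESeq2 called 0 of these ribosomal protein genes higher, as it called 0 of all genes higher in this split. Of 64 tested other ribosome biogenesis genes, 41 were positive with a median of 0.15, and 0 passed. With Myc the medians were 0.05 for ribosomal protein genes and 0.17 for other ribosome biogenesis genes. Differences between these lists were not tested. A cell without a Myc UMI may still hold Myc RNA, since 3.03% to 4.95% of tumour-gated cells of MYC replicates 1, 2 and 3, and 5 showed a Myc UMI at 1000 UMIs and 19.4% to 30.8% before thinning. Among cells with 1000 or more UMIs, thinned to 1000, 13.4% and 19.9% of SHH tumour-gated cells showed Mycn. In tumour-gated cells of MYC animals the share was 0% to 0.0238%. In macrophage-gated cells of the same SHH animals it was 0.643% and 0.588%, and in their T cell-gated cells 0.880% and 2.10%.

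**Figure D4:**
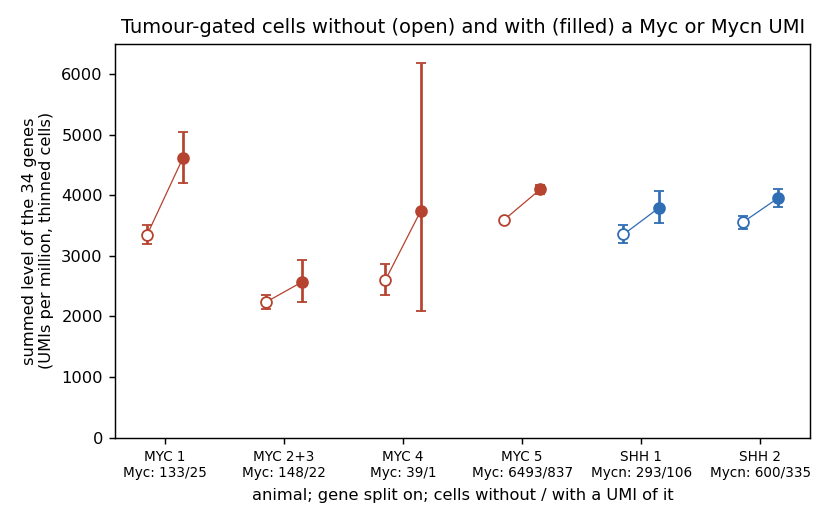
The y axis gives the summed level of the 34 genes in thinned tumour-gated cells in CPM, and the x axis the 6 animals with the gene used for the split and the cell numbers. Open points are cells without and filled points cells with a UMI of Myc (red) or Mycn (blue), with exact Poisson 95% intervals: the filled point is higher in each animal, by 1.11 to 1.44 times, the last from 1 cell in MYC replicate 4.

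Across animals the levels of Myc and of the 34 genes were ordered differently. MYC replicate 4, with 2.10 CPM of Myc, and MYC replicates 2 and 3, with 52.3 CPM, had the lowest tumour-gated levels of the 34 genes, 2697 and 2519 CPM. SHH replicate 2, with 1.87 CPM of Myc and 233 CPM of Mycn, had the highest. In cycling cells alone the level was 4741 CPM in MYC replicate 4 (12 cells) and 3907 in MYC replicates 2 and 3 (31 cells). It was 3882 and 4202 CPM in those of MYC replicates 1 and 5. In other tumour-gated cells it was 2186 and 2099 CPM, against 3232 and 3409. The part of cycling or of Myc in these levels was not tested. With 6 animals in 2 subgroups no correlation was computed.

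Cycling tumour-gated cells, those with 2 or more UMIs over 2 or more of 10 cell cycle markers, carried more of the 34 genes' RNA than other tumour-gated cells. The summed levels of cycling and other cells were 3882 and 3232 CPM in MYC replicate 1, 3907 and 2099 in MYC replicates 2 and 3, 4202 and 3409 in MYC replicate 5, 4048 and 3270 in SHH replicate 1 and 4498 and 3600 in SHH replicate 2. All 5 animals with 20 or more cells of both kinds were higher in cycling cells, by 1.20 to 1.86 times. MYC replicate 4 had 12 cycling cells and was not tested. Among animals with as many cells, the same direction was seen in 3 of 3 for macrophage-gated cells (1.18 to 1.34 times) and 3 of 3 for T cell-gated cells (1.24 to 1.71 times). Cells with more UMIs pass the cycling rule more easily.

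By edgeR, 5 of 33 genes rose in cycling tumour-gated cells and 0 fell, where 6.2% of 8918 genes rose and 3.36% fell. Dctpp1 was at 164, 73.7, 146, 436 and 578 CPM in cycling and at 71.5, 27.6, 76.3, 254 and 286 CPM in other cells of the 5 animals, higher in each (0.96 ± 0.11 SE, edgeR adjusted p = 7.9e-05). Tcof1 rose by 0.79 ± 0.16 SE (edgeR adjusted p = 0.0060), from 14.0 to 54.8 CPM in other cells to 23.3 to 93.5 CPM in cycling cells. Nop56 (0.75 ± 0.16 SE), Dkc1 (0.63 ± 0.14 SE) and Odc1 (0.57 ± 0.11 SE) were the other 3. Gnl3, Nob1 and Pes1 were near 0, at -0.01, -0.19 and 0.08. With shallower cells left out and the cycling split made on counts thinned to 2000 UMIs, Dctpp1 alone passed. The count was 3 without MYC replicate 5 (Dkc1 and Tcof1 lost) or SHH replicate 2 (Nop56 and Tcof1 lost) and 8 without MYC replicate 1, and Dkc1 was lost without SHH replicate 1.

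Among MYC network genes, Mxd3, a MAX partner known from proliferating cells, rose with cycling (4.42 ± 0.29 SE, higher in 5 of 5 animals, edgeR adjusted p = 4.2e-07), and Mxd4, a MAX partner of resting cells, fell by 0.82 on the log2 scale in 5 of 5 (edgeR adjusted p = 0.0040). Myc did not pass, at 0.11 ± 0.21 SE. Of 78 tested of the other ribosome biogenesis genes 3 rose, Lyar, Ncl and Gar1, and of 78 ribosomal protein genes 0 rose and 1 fell. The share of the first list that rose, 3.85%, is below the 6.2% of all genes.

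**Figure D5:**
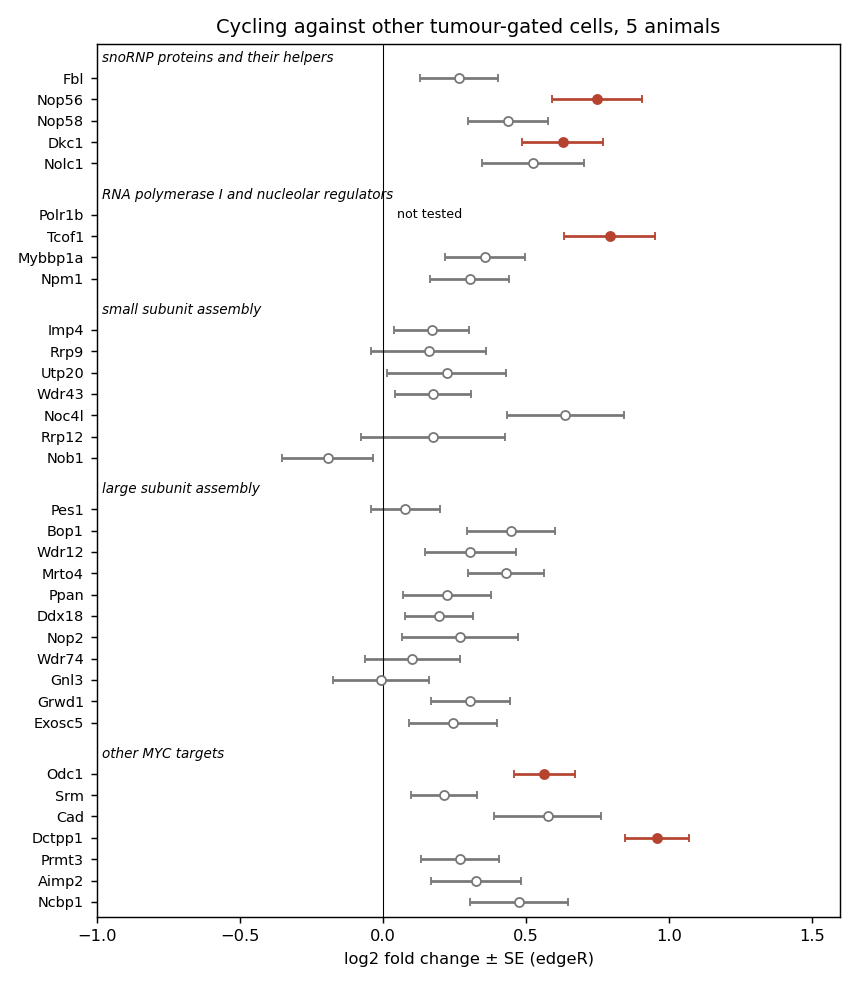
The x axis gives the log2 fold change of cycling over other tumour-gated cells with its standard error (edgeR, 5 animals), and the y axis the 34 genes by role. Filled red points passed: Nop56, Dkc1, Tcof1, Odc1 and Dctpp1, while 31 of the 33 tested genes lie above 0.

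The genes with an E-box are set beside the others. In tumour-gated against macrophage-gated cells the 9 genes with CACGTG had a median log2 fold change of 0.45 and 2 of 9 rose, Wdr43 and Prmt3, whose sites are printed above. The 18 tested genes with a window and no such motif had a median of 0.75 and 8 of 18 rose. In cells with Myc the medians were 0.17 over 8 and 0.29 over 17 genes. Other comparisons had the opposite order: the medians with and without the motif were 0.28 and 0.20 against T cell-gated cells and 0.67 and 0.09 between subgroups in tumour-gated cells. Of the 7 genes that carry snoRNAs, 5 rose in tumour-gated against macrophage-gated cells (Gnl3, Wdr43, Nop58, Odc1 and Dkc1), and 7 of the 25 other tested genes did. These splits were made after the folds were known and were not tested.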

How the data were processed

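The authors deposited 1 table of raw UMI counts per library, whole numbers without normalization, made with Cell Ranger 2.0.2 and mm10 per the submitters' processing notes. Each table lists genes with a UMI in 3 or more barcodes, and an unlisted gene was set to 0. Barcodes were dropped below 500 UMIs, below 200 genes or above 20% mitochondrial UMIs. Cells were gated on raw marker UMIs (tumour gate: pan-haematopoietic markers at most 0.1% of UMIs or 1 UMI, and other lineages below limits; macrophage gate: at least 0.3% macrophage UMIs over 2 or more genes; T cell gate: at least 0.1% T cell UMIs with a Cd3 gene). The names are rebuilt here. Doublets were kept; the top Scrublet scores (scanpy 1.11.5; 0.8% per 1000 cells) were left out in an alternative.

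Counts were summed per animal and gate (at least 20 cells). The test was that of edgeR 4.0.16 in R 4.3.3 (TMM, filterByExpr, quasi-likelihood F test, Benjamini-Hochberg threshold 0.05), with the animal as a block where both sums come from it; the pairing is by animal. A standard error is the log2 fold change over the root of F. DESeq2 1.42.0 was an alternative. p-values measure the spread between these animals. Genes named are those that passed (at most 10 per comparison), a fixed set by role and genes singled out in the text for their values. Members and lists were chosen with earlier results of these data known. The edgeR test was run on simulated counts without animal effects, so that check does not cover the pairing or the spread between these animals. Alternatives were other size factors, no low-count filter, left-out animals, other gates, a sequencing run covariate, libraries as replicates and thinning. Sums, shares and intervals cover counting error only. Positions are of GRCm38 (GENCODE M21), the assembly mm10 names, and promoters are of RefSeq.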

Additional observations from a re-analysis of the deposited data

Results flagged for a closer look

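The log2 difference of the summed level between tumour-gated and T cell-gated cells was -0.26 in MYC replicates 2 and 3, far from the other 5 animals, all above 0. It was 1 of 20 groups of 4 to 6 animals checked in this way, and chance marks about 1 in 20. The animal's T cell gate held 58 cells.

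Myc differed between subgroups in its tumour to macrophage difference, by 3.46 ± 0.80 SE on the log2 scale (edgeR interaction, adjusted p = 0.033). Its tumour-gated level was above the macrophage-gated level in MYC replicates 1, 2 and 3, and 5, and below it in MYC replicate 4 (2.10 against 7.32 CPM) and in both SHH animals.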

How the results depend on the processing

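Counts of the 34 genes called kept within 1.5 times of the reported count under every alternative run except the following. Tumour-gated against macrophage-gated cells: 12 higher became 5 without the animal block and, in alternatives chosen after seeing the data, 20 without size factors and 7 with cycling cells left out, where 1 was lower; leaving out 1 animal gave 6 to 12. Tumour-gated against T cell-gated cells: 5 higher became 3 to 6 and 1 lower became 0 to 3 on leaving out 1 animal; 0 were lower without the block, and 2 with cycling cells left out. Cycling against other cells: 5 higher became 3 to 8 on leaving out 1 animal, 0 without the block and 1 with the split on thinned counts. MYC against SHH in tumour-gated cells: DESeq2 gave 1 higher and 1 lower, and without size factors 253 of all genes were higher and 460 lower, in place of 306 and 326. Mycn split: 2 higher without thinning (Dctpp1 and Npm1), and the summed log2 difference of 0.17 became 0.24 with 2 times the UMIs and 0.24 without thinning. No called gene changed direction. Of the 12 genes higher than in macrophage-gated cells, Nob1 and Odc1 passed in 15 of 15 alternatives. In the T cell comparison Wdr12, Srm and Gnl3 passed in 14 of 14. The block is the animal, so its removal discards known pairing. The Myc split with cycling cells left out could not be fitted, and leaving out an animal of the Mycn split leaves no residual degree of freedom.

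Gates with 28 to 79 cells carry the widest counting error, and Polr1b and Rrp12 were near the detection limit.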

Other observations

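Of 78 tested of the other ribosome biogenesis genes, 7 rose and 3 fell in tumour-gated against T cell-gated cells (edgeR), 8.97% and 3.85%, both below the 17.3% and 15.7% of all genes. Among them, Riok1, a kinase of small subunit maturation, fell in tumour-gated against T cell-gated cells. It was at 24.1 ± 9.1 CPM (SD, n = 6) in tumour-gated and 45.0 ± 10.8 in T cell-gated cells, lower in 6 of 6 animals, with a fold of -0.99 ± 0.23 SE on the log2 scale (edgeR adjusted p = 0.0097). Nop14 and Nop16, assembly factors of the small and the large subunit, rose in the same comparison, by 0.77 and 0.92. Ruvbl2 rose against both immune gates, by 0.95 and 0.93.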
